A study of Mus musculus with 16 samples.

Results

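Whole skeletal muscle of mice carrying the mTreg24 T cell receptor (TCR) transgene was compared with that of controls without it, 8 days after the muscle was injured with cardiotoxin. The 6 libraries were chosen by their labels, 3 for each genotype, out of 16 libraries in the series, and the comparison ran over all genes of the table. The Tg group was labelled mTreg24 TCR-tg+ and the WT group mTreg24 TCR-tg-, both on the B6 background and 6-8 weeks old. Both groups had been injured, and no uninjured whole muscle was analysed here. The other 10 libraries came from regulatory T cells (Tregs) sorted from muscle and spleen on day 3, or from spleen without injury. The labels do not give the promoter of the transgene, its receptor segments, or whether each library came from its own animal, so p-values measure only the spread between these libraries.

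Cardiotoxin kills muscle fibres and leaves the stem cells beneath their sheath alive. These satellite cells, marked by Pax7, divide, switch on Myod1 and Myog, fuse and make new fibres that first carry embryonic myosin (Myh3) before adult fast myosins such as Myh4 take over. Monocytes and macrophages clear the debris, fibroblast-like progenitors marked by Pdgfra lay down collagen, and Foxp3-expressing Tregs gather in the wound, where in mice they are known to aid repair. A T cell receptor is built from an alpha chain (a Trav segment joined to the constant region Trac) and a beta chain (a Trbv segment joined to Trbc1 or Trbc2), and both need the CD3 proteins to reach the surface.

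The 6 libraries held 6082363, 6499968 and 7075420 counts in Tg muscle, against 6911679, 6782174 and 5095999 counts in WT muscle, with 19941 to 21780 gene symbols detected in each. The label of skeletal muscle fitted the content: the fast sarcomere genes made up 19.5% to 21.3% of counts in the Tg libraries and 19.8% to 20.7% in the WT libraries. Every library had counts of the Y-linked gene Ddx3y (31.6 to 38.4 CPM in Tg and 36.3 to 37.2 CPM in WT, where CPM is the count scaled to the library's size). The library labelled WT replicate 1 stood apart. Of 5637 well-expressed genes, 100 lay more than 1 log2 unit below the median of the other 5 libraries there, against 6 to 23 genes in any other library. The first principal component, with 26.8% of the variance, scored that library at 54.9, WT replicate 3 at 8.23 and the rest at -21.2 to -9.34. The second, with 21.9%, set WT replicate 3 apart. For gene lists whose median depends on WT replicate 1, the value without it is given as well. The filter that drops genes of low count was then run again, so some lists had more tested genes.

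The TCR genes carry the difference between the genotypes, and several have near-identical copies that 25-base reads may not tell apart. The sequences below (GENCODE M21 transcripts, build GRCm38) show where they differ from related genes, with capitals at bases that differ between the genes shown together. Each stretch of 90 bases was picked for the most differences among the gapless stretches searched, so it does not give the typical divergence. Trav9n-4 was set beforehand as the gene to compare with Trav9-4, and whether it is the closest was not tested. Of all 25-base stretches of the transcript, 99.9% were found in no other gene for Trac, 81.6% for Trbv13-2, 50.1% for Trbc2 and 20.2% for Trav9-4. Trbc2 shared 333 of its stretches with Trbc1, and Trav9-4 shared its stretches with 10 other members of the Trav9 family. Counts of Trav9-4 and of Trbc2 are therefore uncertain as to the copy they came from. Trac lies on chromosome 14 at 54220521 to 54224206 and Trav9-4 on the same chromosome at 53676141 to 53676630, while Trbc2 lies on chromosome 6 at 41546730 to 41548352 and Trbv13-2 at 41121396 to 41121832, all on the plus strand.
Trbc2, transcript bases 400 to 489: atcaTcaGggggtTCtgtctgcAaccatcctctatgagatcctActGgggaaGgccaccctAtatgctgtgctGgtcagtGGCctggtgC
Trbc1, transcript bases 400 to 489: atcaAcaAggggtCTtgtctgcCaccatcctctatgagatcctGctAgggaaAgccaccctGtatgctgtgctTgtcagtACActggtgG
Trav9-4, transcript bases 253 to 342: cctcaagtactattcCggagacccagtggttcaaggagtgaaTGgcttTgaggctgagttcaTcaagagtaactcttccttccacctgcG
Trav9n-4, transcript bases 453 to 542: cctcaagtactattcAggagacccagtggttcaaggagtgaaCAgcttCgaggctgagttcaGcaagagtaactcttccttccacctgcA
Trbv13-2, transcript bases 214 to 303: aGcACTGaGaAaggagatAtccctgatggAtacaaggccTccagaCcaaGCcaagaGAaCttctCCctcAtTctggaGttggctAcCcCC
Trbv13-3, transcript bases 214 to 303: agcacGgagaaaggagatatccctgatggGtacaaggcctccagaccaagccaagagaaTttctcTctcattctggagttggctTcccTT
The pair Trbc2 and Trbc1 differed at 14 of these 90 bases, Trav9-4 and Trav9n-4 at 6, and Trbv13-3 differed from Trbv13-2 at 7. Capitals in Trbv13-2 mark its 25 differences from either Trbv13-3 or the third family member, Trbv13-1.

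Of 12377 genes tested, edgeR's quasi-likelihood test called 4, which is 0.0323%, and all 4 were TCR genes that rose in Tg muscle: Trac, Trav9-4, Trbc2 and Trbv13-2. No gene was called lower by edgeR, and 598 genes (4.83%) had an unadjusted p under 0.05, of which 330 were higher (2.67%) and 268 lower (2.17%) in Tg muscle. With other tools, limma-voom called the same 4 genes and DESeq2 called 6 (0.0182%), adding Igfn1, higher in Tg, and Hp, lower in Tg. Without a filter on low counts edgeR called 11 genes (0.0334%), the 7 added ones being Cd68, Cd84, Hp, Igfn1, Krt18, Lrrn2 and Timp4. Apart from Igfn1, Hp and Cd68, no member of the lists below outside the TCR genes was called by any of these tools. The median log2 fold change over the tested genes was -0.0038, and 49.4% of the fold changes were positive. For 7194 genes (58.1%) the 95% interval of the fold change lay within 1 log2 unit of 0, and among the 5637 genes with a mean log2 CPM of at least 4 this held for 5413. The 3 values of one genotype all lay above the 3 of the other for 648 genes with Tg higher (5.24%) and for 577 with Tg lower (4.66%). These 2 shares are the background against which the counts of non-overlapping genes in the lists below are read. The shares at an unadjusted p under 0.05 (4.83% in all, 2.67% higher and 2.17% lower) serve in the same way.

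**Figure D1:**
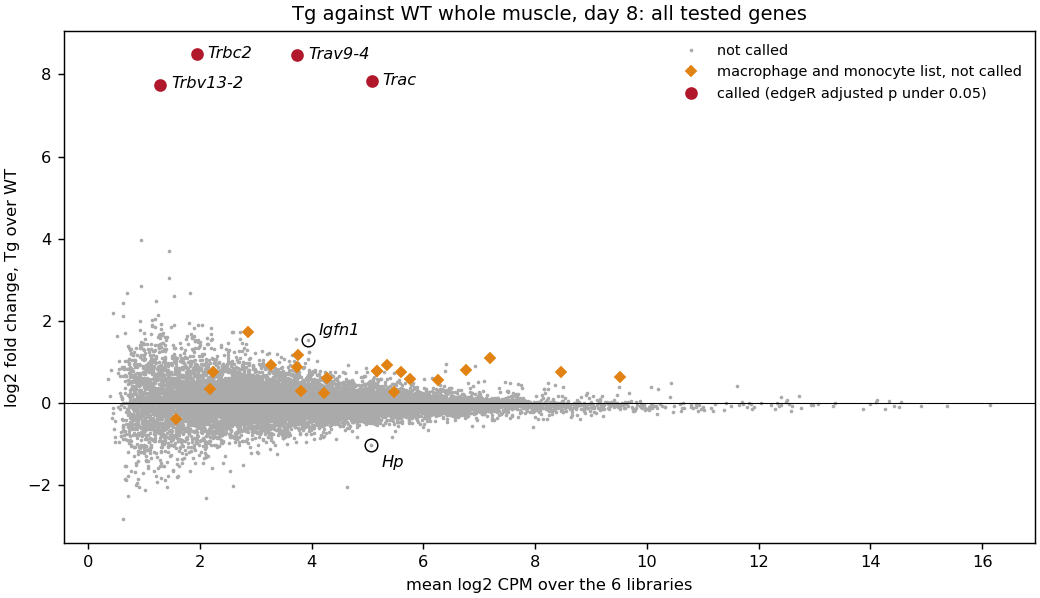
Log2 fold change of Tg over WT whole muscle (vertical axis) against the mean log2 CPM of the 6 libraries (horizontal axis) for the 12377 tested genes. The 4 TCR genes called by edgeR sit at log2 fold changes between 7.75 and 8.48, the macrophage and monocyte genes lie mostly above 0 without passing the test, and rings mark Hp and Igfn1.

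Trac, the constant region of the alpha chain, had 477, 464 and 365 counts in the Tg libraries, against 4, 0 and 1 counts in the WT libraries. Taken over all counts, the ratio of Tg to WT was 245 with a 95% interval of 105 to 755 for counting error only, and edgeR's adjusted p was 2.31e-08. Trav9-4, an alpha chain variable segment, had 146, 216 and 149 counts in Tg muscle, against 0, 1 and 0 counts in WT muscle. Its ratio was 479 with an interval of 85.5 to 18943, and its edgeR adjusted p was 7.44e-07. The groups were far apart for both genes, and all Tg libraries were close to each other.

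The beta chain followed the same pattern at lower counts. Trbc2 had 46, 47 and 45 counts in Tg muscle and 0 in each WT library, which is at least 14.1-fold higher against a limit of 3 counts per library (edgeR adjusted p 0.00273). Trbv13-2, a member of the mouse Vβ8 family by which the Tg Tregs of the series were sorted, had 29, 25 and 29 counts in Tg muscle and 0 in each WT library, at least 8.46-fold higher on the same limit (edgeR adjusted p 0.0448). The fitted log2 fold changes of Trbc2 and Trbv13-2 in the plot of all genes depend on the prior count, since WT muscle had no counts, and are no bounds. The call of Trbv13-2 was lost without any 1 of the 6 libraries, when its adjusted p ran from 0.112 to 0.593. Trbc1, the other beta constant region, had 0 counts in all Tg libraries, against 0, 4 and 0 counts in WT. The remaining Trav segments together had 20 counts in Tg and 24 in WT muscle, and the remaining Trbv segments 7 in Tg and 6 in WT.

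No other T cell gene was called. Of 25 T cell genes 8 passed the filter on low counts, and only Trac and Trbc2 were called by edgeR. Cd3e, a CD3 chain, had 24, 20 and 8 counts in Tg muscle, against 4, 24 and 12 counts in WT muscle, and its log2 fold change was 0.31 with a 95% interval of -1.19 to 1.81. The ranges of the genotypes overlapped, and WT replicate 1 was the lowest. Cd3g had 5, 0 and 5 counts in Tg and 0 in each WT library, and Cd3d had 0, 0 and 3 in Tg, against 0, 0 and 1 in WT. The coreceptor Cd4 had 7, 0 and 6 counts in Tg, against 0, 7 and 3 in WT, and Lck, the kinase that starts receptor signalling, had 4, 6 and 5 in Tg, against 2, 7 and 0 in WT.

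Foxp3, the factor that defines Tregs, had 0, 10 and 0 counts in Tg muscle, against 4, 0 and 0 counts in WT muscle, too few for a test. In 2 of the 3 libraries of each genotype it was not detected, which at this depth allows up to 0.43 to 0.60 CPM per library. Of 19 Treg genes 4 were tested and edgeR called none. Of these 4, 2 had a positive fold change. The median log2 fold change was -0.27, or 0.17 over the 5 genes tested without WT replicate 1. Ikzf2, a gene of this list, had 6.06, 2.99 and 5.88 CPM in Tg, against 10.7, 8.61 and 4.20 CPM in WT, and overlapped (edgeR adjusted p 0.994). Capg, an actin-capping protein that macrophages also express, had 50.7, 60.4 and 54.5 CPM in Tg, against 23.4, 45.9 and 30.2 CPM in WT (edgeR adjusted p 0.913). Ptprc, the pan-leukocyte marker CD45, had 103, 90 and 71 counts in Tg and 47, 67 and 62 counts in WT. In these bulk samples, fewer cells of a type and less RNA per cell cannot be told apart.

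**Figure D2:**
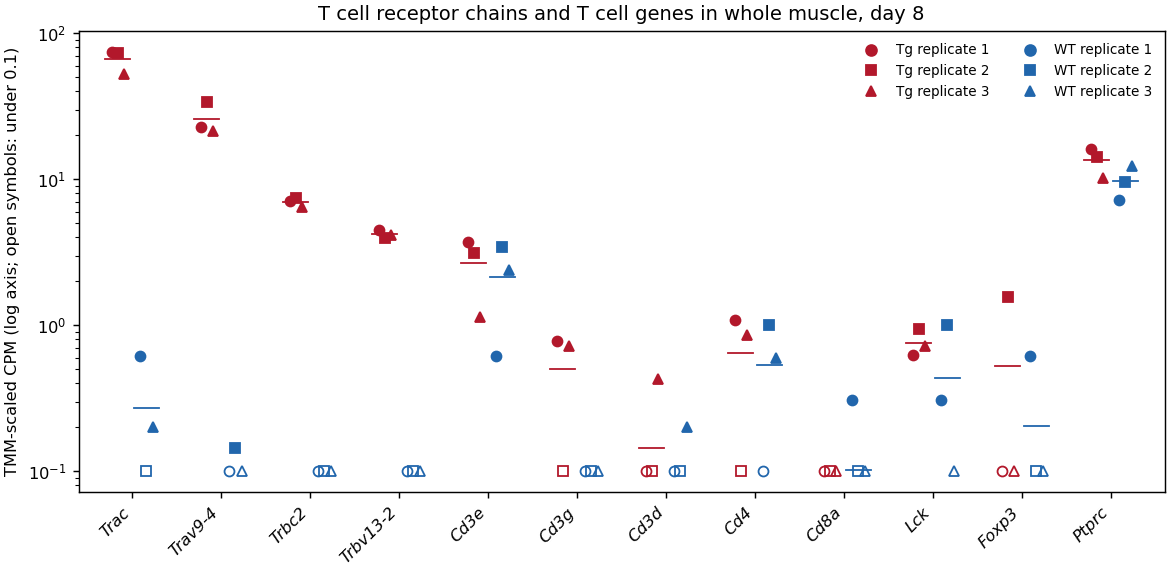
CPM of TCR chains and other T cell genes in each whole muscle library on a log axis; bars are means of 3 libraries, and open symbols mark values under 0.1 CPM. Trac, Trav9-4, Trbc2 and Trbv13-2 separate the 3 Tg from the 3 WT libraries, whereas Cd3e, Cd4, Lck and Foxp3 overlap.

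Because Cd3e overlapped between genotypes while Trac rose, the balance of receptor chains was set beside that of the 6 Treg libraries of Tg mice. Those were taken on day 3 or without injury and from sorted cells, so the values are a description with no test, and counts of 2 genes stand for neither molecules nor equal lengths. Per count of Trbc2, whole Tg muscle had 10.4, 9.87 and 8.11 counts of Trac, with 95% intervals for counting error between 5.94 and 14.4. Muscle Tregs of Tg mice had 0.403 and 0.448, and their spleen Tregs had 0.176 to 0.297. The lowest bound of the whole muscle intervals was above every Treg library. Tregs of WT mice, with their own mixed receptors, had 1.72 and 1.95 in muscle and 0.688 and 0.726 in spleen.

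Ratios to the CD3 genes compare less like with like. The summed Cd3d, Cd3e and Cd3g had 29, 20 and 16 counts in Tg and 4, 24 and 13 counts in WT whole muscle, so WT muscle had CD3 counts with almost no Trac or Trbc2. Cd3e gave 24, 20 and 8 of these counts in Tg and 4, 24 and 12 in WT, while in Tregs all of Cd3d, Cd3e and Cd3g contributed. Per count of the summed CD3 genes Cd3d, Cd3e and Cd3g, whole Tg muscle had 16.4, 23.2 and 22.8 counts of Trac, against 0.484 to 1.56 in the 6 Treg libraries of Tg mice. For Trbc2 the same ratio was 1.59, 2.35 and 2.81 in whole Tg muscle, against 2.25 to 3.48 in those Tregs, and the ranges overlapped. The variable segments, taken without CD3, had 5.03, 8.64 and 5.14 counts of Trav9-4 per count of Trbv13-2 in whole Tg muscle, against 0.0998 to 0.298 in Tregs of Tg mice. Within a chain the balance was alike: Trac per Trav9-4 was 3.27, 2.15 and 2.45 in whole Tg muscle and 2.29 to 3.71 in the Tregs, and Trbc2 per Trbv13-2 was 1.59, 1.88 and 1.55 in whole Tg muscle and 1.5 to 1.61 in the Tregs. Tissue, day and RNA input all differed between these libraries, and their part in the ratios cannot be told apart.

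**Figure D3:**
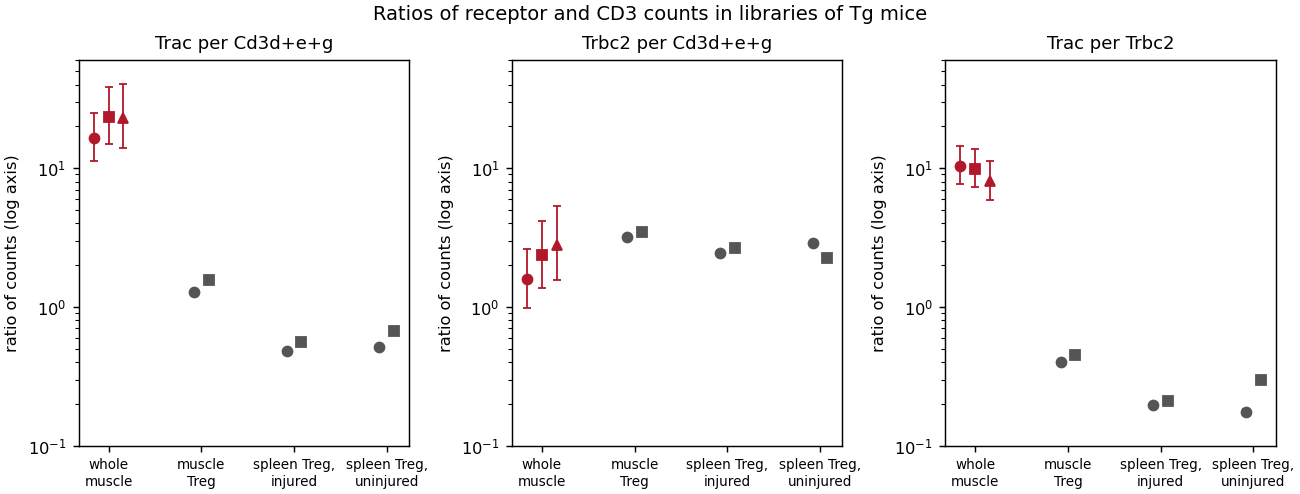
Ratios of counts in the 3 whole muscle libraries (red) and the 6 Treg libraries (grey) of Tg mice on log axes, with 95% intervals for counting error that are narrower than the symbols for Tregs. Trac per CD3 and Trac per Trbc2 are higher in whole muscle than in any Treg library, while Trbc2 per CD3 overlaps.

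No fast contractile gene of the injured muscle was called by edgeR. These bulk samples cannot tell new fibres from fibres that survived the injury. For all 16 fast sarcomere genes, all 25 genes of the giant proteins and the Z-disc, and 24 of 25 tested calcium handling genes, the 95% interval lay within 1 log2 unit of 0. The same held for 58.1% of all tested genes and for 5413 of the 5637 well-expressed genes, so it does not set these lists apart. Acta1, the skeletal muscle actin, had 66165, 74779 and 73170 CPM in Tg muscle, against 77664, 67952 and 75605 CPM in WT muscle. Myh4, the fastest myosin heavy chain, averaged 20839 ± 3875 CPM in Tg and 20180 ± 1115 CPM in WT (SD, n = 3 each), a log2 fold change of 0.05 with an interval of -0.20 to 0.29. Titin (Ttn) and the calcium pump Atp2a1 had log2 fold changes of -0.08 (interval -0.29 to 0.13) and -0.07 (interval -0.27 to 0.13). The calcium buffer Pvalb of fast fibres had 4414, 6437 and 6197 CPM in Tg, against 5164, 4722 and 5424 CPM in WT, and overlapped. Of the 25 giant protein and Z-disc genes, 3 had an unadjusted p under 0.05, all lower in Tg, against 2.17% of all genes.

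Slow contractile genes were bounded less well. Of 12 slow sarcomere genes, 6 had a 95% interval within 1 log2 unit of 0, and edgeR called none. At an unadjusted p under 0.05, 2 were lower in Tg, against 2.17% of all genes. Of the 12 fold changes 11 were negative, with a median of -0.17. Without WT replicate 1 the median was -0.34, and in 3 of the 12 the Tg values all lay below the WT values, against a background that was then 9.49%. Csrp3, a muscle LIM protein named after its values were seen, had 242, 237 and 195 CPM in Tg, against 287, 287 and 277 CPM in WT (log2 fold change -0.34, edgeR adjusted p 0.99). The spread of Myh7 and other slow genes between libraries is described further on.

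Markers of new fibres were present in both genotypes. Myh3, the embryonic myosin, had 231, 240 and 211 CPM in Tg muscle, against 151, 319 and 203 CPM in WT muscle, and its log2 fold change was 0.02 with an interval of -0.48 to 0.52. The Tg libraries lay inside the WT range. Of the 26 genes of the regenerating fibre list, all tested, edgeR called none. At an unadjusted p under 0.05, 3 were higher in Tg, against 2.67% of all genes. Of the 26 fold changes 20 were positive, with a median log2 fold change of 0.21. In 5 of the 26 the Tg values all lay above the WT values, against the background of 5.24%. Without WT replicate 1 the median was 0.13.

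Among them Actc1, the cardiac actin of immature fibres, had 2843, 3872 and 3950 CPM in Tg, against 2247, 2193 and 3592 CPM in WT (edgeR adjusted p 0.994). Myl4, the embryonic light chain, had 158, 141 and 144 CPM in Tg, against 77.9, 137 and 95.2 CPM in WT, and H19, a noncoding RNA of developing muscle, had 734, 833 and 706 CPM in Tg, against 692, 667 and 611 CPM in WT. These groups did not overlap for Myl4 and H19, but neither passed the test. Mymk and Mymx, which drive myoblast fusion, overlapped between genotypes at 12.9 to 19.4 CPM in Tg and 9.95 to 13.6 CPM in WT for Mymk, and 2.02 to 3.78 CPM in Tg and 1.00 to 2.14 CPM in WT for Mymx.

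Igfn1, a sarcomere protein gene of the same list singled out after its values were seen, had 16.2, 21.7 and 28.8 CPM in Tg muscle, against 7.34, 7.46 and 8.20 CPM in WT muscle. Its log2 fold change was 1.54 with an interval of 0.94 to 2.13, and all Tg libraries lay above all WT libraries. The edgeR adjusted p was 0.109. DESeq2 gave 0.0118 and edgeR without a filter on low counts 0.00123, so the call depended on the method. Over all alternatives its log2 fold change ran from 1.31 to 1.72.

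The stem cell and myogenic factor genes overlapped between genotypes. Of 30 such genes 26 were tested, edgeR called none and 1 had an unadjusted p under 0.05, the median log2 fold change was -0.037 (0.025 without WT replicate 1), and no gene had non-overlapping values. Pax7 was near the detection limit, at 3.11, 1.57 and 0.861 CPM in Tg, against 0.459, 1.43 and 2.20 CPM in WT. Myod1, the factor of committed myoblasts, had 26.0, 38.9 and 52.2 CPM in Tg, against 38.4, 28.3 and 39.2 CPM in WT. Myog, which acts as myoblasts differentiate, had 48.7, 53.0 and 37.7 CPM in Tg, against 22.2, 41.8 and 33.4 CPM in WT (log2 fold change 0.52, edgeR adjusted p 0.994), with Tg replicate 3 inside the WT range. Cell division genes were low in both: Mki67 had 4.35, 2.52 and 1.29 CPM in Tg, against 1.53, 5.45 and 3.20 CPM in WT, and of 42 cell cycle genes 32 were tested, none called by edgeR and none with an unadjusted p under 0.05.

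Among the lists with no called gene, the macrophage and monocyte list had the highest median fold change. The summed level of 22 macrophage and monocyte genes was 2350, 2300 and 1992 CPM in Tg muscle, against 700.2, 1893 and 1469 CPM in WT muscle. The Tg libraries all lay above the WT libraries, with WT replicate 1 at the bottom. Of the 21 genes tested edgeR called none, while 8 had an unadjusted p under 0.05, all higher in Tg, against 2.67% of all genes. Of the 21, 20 had a positive fold change, the median log2 fold change was 0.75, and 10 had Tg values above every WT value, against the background of 5.24%. Without WT replicate 1 the median was 0.43, 19 of 21 were positive, and 10 had non-overlapping values, against a background that was then 10% of 12984 genes.

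Lyz2, the lysozyme of myeloid cells, had 482, 456 and 395 CPM in Tg muscle, against 101, 395 and 289 CPM in WT muscle, a log2 fold change of 0.76 with an interval of -0.68 to 2.20. Tg replicate 3 and WT replicate 2 lay next to each other, and WT replicate 1 was far below both. Ctss, a lysosomal protease of antigen-presenting cells, had 191, 227 and 179 CPM in Tg, against 22.5, 141 and 115 CPM in WT. Apoe, a lipid carrier that macrophages secrete, had 989, 894 and 806 CPM in Tg, against 345, 768 and 624 CPM in WT. The edgeR adjusted p was 0.994 for all of Lyz2, Ctss and Apoe.

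Chosen after their values were seen, Itgam (the integrin CD11b) had 11.7, 12.1 and 8.04 CPM in Tg, against 1.84, 5.60 and 2.00 CPM in WT, with a log2 fold change of 1.72 and an edgeR adjusted p of 0.802. Cd84, a leukocyte adhesion receptor, had 22.2, 21.9 and 13.8 CPM in Tg, against 1.99, 9.33 and 8.40 CPM in WT, with a log2 fold change of 1.56 and an edgeR adjusted p of 0.833. Cd68, a lysosomal protein of macrophages, had 50.4, 57.6 and 51.5 CPM in Tg, against 11.9, 44.6 and 27.0 CPM in WT. All of these groups were separate, and Cd84 and Cd68 were called only when no filter on low counts was used (edgeR adjusted p 0.00452 for Cd84 and 0.0122 for Cd68).

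Genes of macrophage subtypes were less uniform. Gpnmb and Spp1, genes of lipid-laden repair macrophages, had 181, 232 and 183 CPM in Tg, against 20.4, 173 and 91.2 CPM in WT for Gpnmb, and 145, 197 and 135 CPM in Tg, against 18.8, 138 and 97.2 CPM in WT for Spp1. Gas6, a bridge to dying cells, overlapped at 151, 154 and 125 CPM in Tg and 146, 162 and 156 CPM in WT. Of 16 tested repair macrophage genes 9 had a positive fold change and the median log2 fold change was 0.11, or -0.011 without WT replicate 1. Of 12 tested inflammatory monocyte genes 9 were positive with a median of 0.26, or -0.031 without WT replicate 1, and edgeR called none in either list, with 1 and 0 genes at an unadjusted p under 0.05. Class II antigen presentation genes had a median of 0.23, with H2-Ab1 at 208, 225 and 184 CPM in Tg, against 78.8, 195 and 159 CPM in WT; without WT replicate 1 the median was -0.017.

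**Figure D4:**
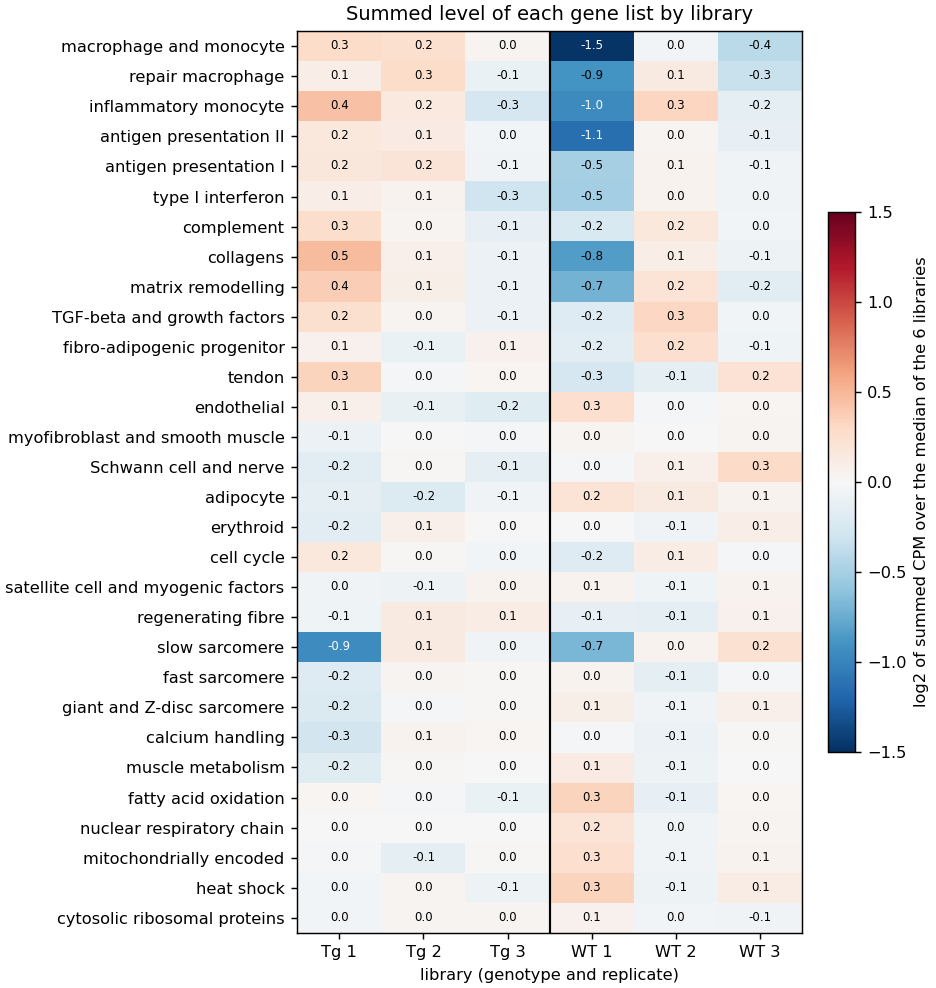
Log2 of the summed CPM of each gene list over the median of the 6 libraries, with Tg libraries left of the line and WT libraries right of it. The lowest cells of the macrophage, class II and collagen lists are in WT replicate 1, and those of the slow sarcomere list in Tg replicate 1 and WT replicate 1.

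The matrix varied with the same library. The summed collagens were 6766, 5145 and 4588 CPM in Tg muscle, against 2719, 5223 and 4615 CPM in WT muscle, and the ranges overlapped. Col1a1, the main fibrillar collagen chain, had 1535, 1228 and 1185 CPM in Tg, against 637, 1218 and 1242 CPM in WT, and Col3a1, the collagen of early scar, had 2093, 1530 and 1203 CPM in Tg, against 592, 1626 and 1203 CPM in WT. Of 18 collagens edgeR called none. At an unadjusted p under 0.05, 3 were higher in Tg, against 2.67% of all genes. Of the 18 fold changes 15 were positive, with a median log2 fold change of 0.38, and 0.18 without WT replicate 1. Of 40 matrix remodelling genes 35 were positive with a median of 0.27, and without WT replicate 1 the count was 23 and the median 0.049. In 1 of the 18 collagens the Tg values all lay above the WT values, against the background of 5.24%. It was Col6a1, a chain of the microfibrillar collagen around fibres. Col6a1 had 266, 223 and 229 CPM in Tg, against 135, 206 and 183 CPM in WT (edgeR adjusted p 0.981).

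Stromal genes were spread around 0. Pdgfra, the receptor that marks fibro-adipogenic progenitors, had 23.9, 10.7 and 26.3 CPM in Tg, against 12.2, 20.1 and 11.8 CPM in WT. Dcn, a proteoglycan these cells secrete, had 581, 496 and 585 CPM in Tg, against 428, 561 and 477 CPM in WT, and of 23 tested progenitor genes 12 were positive with a median log2 fold change of 0.017, or -0.044 without WT replicate 1. Acta2, the actin of smooth muscle and myofibroblasts, had 125, 117 and 142 CPM in Tg, against 84.5, 102 and 110 CPM in WT (log2 fold change 0.38, edgeR adjusted p 0.994), while the median over its list of 15 tested genes was 0.029. Kera, a keratan sulfate proteoglycan of tendon and cornea singled out after its values were seen, had 44.8, 34.3 and 41.3 CPM in Tg, against 20.5, 20.5 and 25.2 CPM in WT (log2 fold change 0.87, edgeR adjusted p 0.583). These groups were separate for Acta2 and Kera.

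The median log2 fold change was below 0 for the endothelial (-0.13), fat cell (-0.19), Schwann cell (-0.21) and erythroid (-0.099) lists, and edgeR called no member of them. Pecam1, the endothelial adhesion molecule CD31, had 125, 86.9 and 78.6 CPM in Tg, against 111, 107 and 98.0 CPM in WT. Aqp1, a water channel of capillaries and red cells, had 126, 127 and 142 CPM in Tg, against 196, 149 and 185 CPM in WT (log2 fold change -0.42, edgeR adjusted p 0.913), and did not overlap. At an unadjusted p under 0.05, 3 of 25 endothelial genes were lower and 1 higher in Tg, against 2.17% and 2.67% of all genes. Adipoq, the fat cell hormone adiponectin, had 5.60, 15.6 and 15.9 CPM in Tg, against 14.7, 34.9 and 17.6 CPM in WT, with a log2 fold change of -0.86. The summed fat cell genes were 1064, 1011 and 1120 CPM in Tg and 1344, 1284 and 1211 CPM in WT, and did not overlap. Other summed lists without overlap, all higher in Tg, were macrophage and monocyte, T cell, TCR segments, and bone and cartilage. The T cell and TCR segment lists hold called TCR genes. The bone and cartilage list had 145, 151 and 145 CPM in Tg, against 49.0, 127 and 132 CPM in WT. Most of that sum was Ctsk, a gene shared with macrophages and described further on. Ctsk alone had 109, 105 and 100 CPM in Tg, against 16.5, 87.7 and 80.0 CPM in WT. Of 18 tested fat cell genes 3 were positive and 4 were lower at an unadjusted p under 0.05, against 2.17% of all genes, and in none did all Tg values lie below all WT values. The median of this list was -0.36 without WT replicate 1, when 20 genes were tested, and -0.029 without WT replicate 2. Haemoglobin Hbb-bs, which may share reads with its sister gene, had 38.1, 62.3 and 45.1 CPM in Tg, against 53.6, 41.9 and 63.0 CPM in WT.

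Few genes of the neutrophil, cytotoxic, B cell and mast cell lists passed the filter on low counts. Of 18 neutrophil genes 2 were tested, Mmp9 and Csf3r, and both overlapped between genotypes. Mmp9 had 16.3, 15.4 and 16.9 CPM in Tg, against 0.612, 17.4 and 18.8 CPM in WT. Csf3r had 3.73, 0.472 and 2.58 CPM in Tg, against 1.22, 1.72 and 3.60 CPM in WT. The untested neutrophil markers S100a9 and Ly6g had 0 CPM in all Tg libraries. In WT libraries S100a9 had 0.765, 0 and 0 CPM and Ly6g 0 in each. Of 20 cytotoxic and natural killer cell genes 1 was tested, Ccl5, at 2.02, 4.25 and 2.58 CPM in Tg, against 0.612, 1.58 and 3.60 CPM in WT. Cd8a had 0 counts in all Tg libraries, against 2, 0 and 0 in WT. Ighm, the heavy chain of B cells, had 58.3 to 92.5 CPM in Tg and 85.1 to 91.0 CPM in WT, and overlapped. Of 17 mast cell and eosinophil genes 5 were tested and edgeR called none. Their median log2 fold change was 0.19. Over the 7 genes of the list tested without WT replicate 1 it was 0.093. At an unadjusted p under 0.05, 1 was higher in Tg, against 2.67% of all genes. This was Kit, the receptor of mast cells and of other progenitors. Kit had 10.7, 4.25 and 7.17 CPM in Tg, against 2.14, 3.01 and 4.80 CPM in WT, and overlapped. Its log2 fold change was 1.17 and its edgeR adjusted p 0.994. Cma1 of the same list overlapped with a log2 fold change of -0.37, and Tpsb2 overlapped with one of 0.19.

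No gene of the energy metabolism, ribosomal protein and heat shock lists was called by edgeR. All 39 nuclear respiratory chain genes and all 38 cytosolic ribosomal protein genes had 95% intervals within 1 log2 unit of 0, with medians of -0.068 and 0.044. Such intervals held for 58.1% of all tested genes and for 5413 of the 5637 well-expressed genes. Of 26 muscle metabolism genes 6 were positive, or 12 without WT replicate 1. Of 13 mitochondrially encoded genes 1 was positive, or 4 without WT replicate 1. Ckm, the muscle creatine kinase, had 26301, 31717 and 31455 CPM in Tg, against 32982, 29265 and 31464 CPM in WT. The mitochondrially encoded share of counts was 5.53% ± 0.45 in Tg and 5.91% ± 0.41 in WT (SD, n = 3 each), an exact two-sided permutation p of 0.5 where 3 against 3 cannot go below 0.1. With WT replicate 1 left out, 24 of the 39 respiratory chain genes had a positive fold change and their median was 0.014, where it had been 4 of 39 with that library. Of 25 fatty acid oxidation genes 5 were positive with a median of -0.16, and 21 had an interval within 1 log2 unit of 0. In 3 of the 25 the Tg values all lay below the WT values, against the background of 4.66%. Without WT replicate 1, 12 of the 25 were positive with a median of -0.021. Then 4 lay fully below and 2 fully above WT, against backgrounds of 9.49% and 10%. Of 16 tested heat shock genes 1 fold change was positive and the median was -0.13, but without WT replicate 1 the count was 9 and the median 0.013. With all libraries 3 of the 16 were lower in Tg at an unadjusted p under 0.05, against 2.17% of all genes. In 2 the Tg values all lay below the WT values, against the background of 4.66%. Hspb6, a small chaperone of muscle, had 1532, 1519 and 1306 CPM in Tg, against 1869, 1385 and 1730 CPM in WT. WT replicate 1 had the highest Hspb6 and the highest mitochondrial share.

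Interferon targets were not called. Of 29 tested type I interferon genes edgeR called none, 1 had an unadjusted p under 0.05, and 22 were positive with a median log2 fold change of 0.091. Without WT replicate 1 the median was -0.034 and 14 of 30 tested genes were positive. Irf7, the factor that amplifies the response, had 19.1, 19.4 and 15.5 CPM in Tg, against 7.65, 19.1 and 19.4 CPM in WT. In the interferon gamma list 10 of 19 tested genes were positive with a median of 0.059, or 9 of 19 with -0.018 without WT replicate 1, and Irgm2, a GTPase of cell defence, had 17.7 to 25.7 CPM in Tg and 18.7 to 22.4 CPM in WT.

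Libraries of one genotype differed by as much as libraries of different genotypes. Between 2 libraries, the correlation of log2 CPM over genes was 0.936 to 0.948 within a genotype and 0.935 to 0.949 between genotypes, and the median absolute log2 difference of a gene was 0.298 to 0.352 within and 0.297 to 0.361 between. The biological coefficient of variation, the spread beyond counting error, was 0.227 in Tg, against 0.262 in WT and 0.235 in WT without replicate 1. The median over genes of the SD of log2 CPM was 0.273 in Tg and 0.303 in WT. Counts differed from those of other libraries of the genotype by more than sampling noise, at a chi-square per degree of freedom of 7.84 in Tg and 8.49 in WT.

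Among genes with a mean log2 CPM of at least 5, Myh7 had the largest SD within genotypes, 1.40 on the log2 scale, and 4 of the 15 genes of largest spread were slow fibre genes. Myh7, the slow myosin heavy chain, had 73.7, 478.6 and 376.9 CPM in Tg muscle, against 94.3, 431.6 and 503.6 CPM in WT muscle. Replicate 1 of either genotype was low, and the groups overlapped with a log2 fold change of -0.15 and an interval of -2.80 to 2.51. Tpm3, the slow tropomyosin, had 105, 402 and 372 CPM in Tg, against 129, 396 and 482 CPM in WT. Tnnc1 and Myl3, a slow troponin and a slow light chain, were also lowest in replicate 1 of each genotype, with 104, 323 and 273 CPM in Tg, against 110, 333 and 295 CPM in WT for Tnnc1, and 237, 759 and 689 CPM in Tg, against 313, 436 and 858 CPM in WT for Myl3. The fast genes did not vary in this way, the summed fast sarcomere level being 184347, 218271 and 214715 CPM in Tg and 218921, 192254 and 208602 CPM in WT.

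Of the 15 genes with the largest spread, another 7 are genes of macrophages or shared by them: Gpnmb, Spp1, Ctss, Ctsk, Cd44, Lyz2 and Lgals3. In each the lowest library was WT replicate 1, as with Ctsk, a collagen-degrading protease, at 109, 105 and 100 CPM in Tg, against 16.5, 87.7 and 80.0 CPM in WT. C1qtnf3, a secreted relative of complement C1q, had 51.9, 53.0 and 29.1 CPM in Tg, against 14.4, 52.9 and 21.6 CPM in WT. The 3 others belong to fuel use. Scd1, which desaturates fatty acids, had 30.6, 52.6 and 68.3 CPM in Tg, against 20.7, 138 and 56.8 CPM in WT. Pdk4, which spares glucose during fasting, had 165, 199 and 77.6 CPM in Tg, against 295, 97.0 and 121 CPM in WT, and Slc25a25, a mitochondrial carrier, had 16.2, 69.7 and 40.5 CPM in Tg, against 24.9, 30.8 and 43.6 CPM in WT. None of these 15 genes was called by edgeR, and none had an unadjusted p under 0.05.

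**Figure D5:**
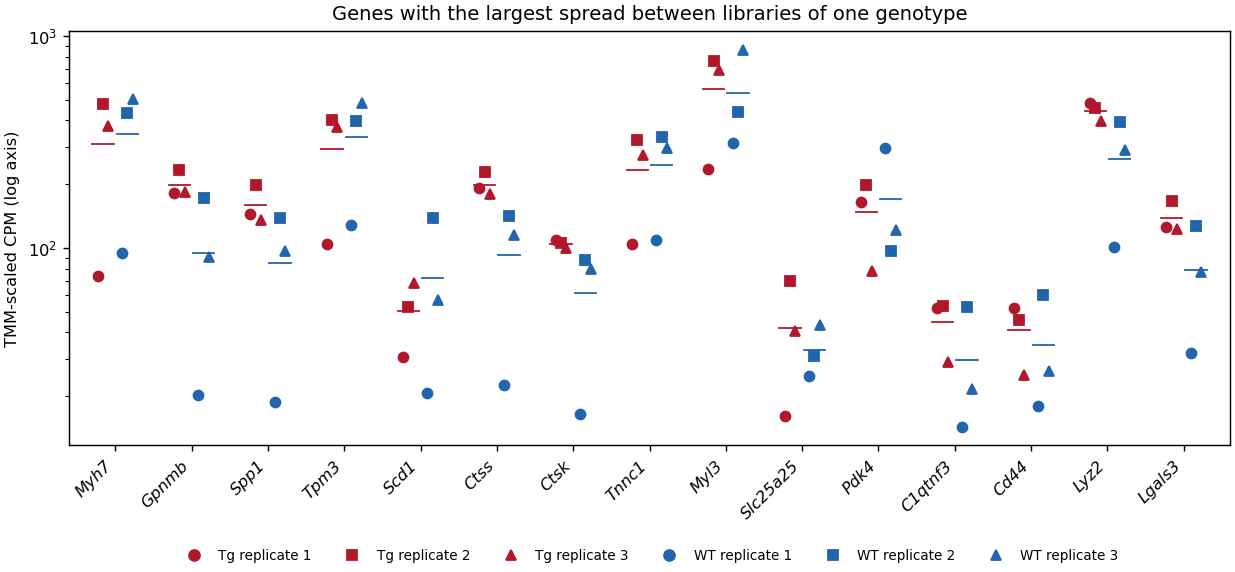
CPM per library on a log axis for the 15 genes with the largest SD of log2 CPM within genotypes among those with a mean log2 CPM of at least 5, in order of that SD; bars are means of 3 libraries. Myh7, Tpm3, Tnnc1 and Myl3 are low in replicate 1 of either genotype, and Gpnmb, Spp1, Ctss and Ctsk are low in WT replicate 1.

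Beyond the TCR genes, the 10 genes of lowest p, named after their values were seen, were Hp, Igfn1, Nbeal2, Kera, Lrrn2, Efr3a, Eef2k, Krt18, Slc5a3 and Rtl3, of which Hp and Eef2k were lower in Tg muscle and the others higher. None was called by edgeR, and none had overlapping groups. Hp, haptoglobin, which binds free haemoglobin, had 19.1, 23.4 and 23.4 CPM in Tg muscle, against 40.4, 49.4 and 43.6 CPM in WT muscle. All Tg libraries lay below all WT libraries, and WT replicate 1 was not apart from the other WT libraries. Its log2 fold change was -1.02 with an interval of -1.41 to -0.62, the edgeR adjusted p was 0.109, and DESeq2 gave 0.00995. Nbeal2, needed for platelet and neutrophil granules, had 9.02, 10.7 and 9.18 CPM in Tg, against 3.37, 2.87 and 2.40 CPM in WT (log2 fold change 1.73, edgeR adjusted p 0.583). Slc5a3, a transporter of myo-inositol, had 13.8, 17.3 and 19.4 CPM in Tg, against 6.12, 8.18 and 8.20 CPM in WT (log2 fold change 1.17, edgeR adjusted p 0.791). Both were fairly even within each genotype. Krt18, a keratin of simple epithelia, had 26.6, 22.3 and 15.2 CPM in Tg, against 6.58, 8.18 and 12.4 CPM in WT (log2 fold change 1.25, edgeR adjusted p 0.791). Lrrn2 and Rtl3 were expressed at low levels, Lrrn2 at 1.72 to 8.97 CPM in Tg and 0.287 to 0.40 CPM in WT, and Rtl3 at 3.62 to 8.39 CPM in Tg and 0.306 to 1.58 CPM in WT. Efr3a, a membrane anchor for a lipid kinase, had 81.3, 81.0 and 69.6 CPM in Tg, against 51.0, 52.5 and 50.8 CPM in WT (log2 fold change 0.59, edgeR adjusted p 0.603). Eef2k, the kinase that slows translation elongation, had 53.0, 47.1 and 58.0 CPM in Tg, against 94.1, 68.4 and 86.2 CPM in WT (log2 fold change -0.65, edgeR adjusted p 0.603). Outside these 10, Timp4, an inhibitor of matrix proteases, had 30.2, 25.2 and 37.7 CPM in Tg, against 76.7, 40.9 and 48.6 CPM in WT, and was called only without a filter on low counts (edgeR adjusted p 0.0193).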

How the data were processed

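Values were whole-number counts of reads per gene symbol, deposited by the authors as 1 table of 52997 symbols. Per the submitters' processing notes, STAR 2.5.4, build mm10 and featureCounts were used; the annotation, strand setting and further options of the counting were not stated. Libraries were primed with oligo(dT), amplified and cut by transposon per the labels' protocols, a chemistry without strand information, so reads of overlapping genes cannot be told apart. Reads of 25 bases limit the separation of gene copies, and intervals cover counting error only, since no molecular identifiers were used.

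The 6 whole muscle libraries were fitted with edgeR 4.0.16 in R 4.3.3 (filterByExpr, TMM, glmQLFit with robust dispersion, glmQLFTest), with Benjamini-Hochberg adjustment over 12377 genes at 0.05 and 4 residual degrees of freedom. CPM values are TMM-scaled. The alternatives included DESeq2 1.42.0 and limma 3.58.1. The procedure was tested on simulated data. Named were the largest called genes, the most abundant members of each of 49 lists (up to 5 called and 3 uncalled), a set list of markers and the 15 genes of largest spread within genotypes; others are said to be chosen after their values were seen. Comparisons, lists and rules were chosen with earlier results of these data known. Of the tested symbols, 12243 were found in GENCODE M21. The labels do not say what a shared replicate number means, so numbers were not used as pairs. Over all tested genes, the deviations of same-numbered Tg and WT libraries had correlations of -0.026, -0.0048 and -0.011. Such correlations cannot show whether the libraries were paired. Some slow fibre genes were low in replicate 1 of both genotypes.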

Additional observations from a re-analysis of the deposited data

How the results depend on the processing

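Leaving out 1 library at a time, the calls numbered 3 to 4, with 3 to 4 higher and 0 lower; without WT replicate 2 Anxa1 was called. Without a filter on low counts edgeR called 11 genes, 9 higher and 2 lower, adding Cd68, Cd84, Hp, Igfn1, Krt18, Lrrn2 and Timp4. With a filter at a mean of 5 CPM it called 2, both higher (Trac and Trav9-4). DESeq2 called 6, with 1 lower. An edgeR fit with the replicate number as a block called 2, both higher (Trac and Trav9-4). Trbc2 had an edgeR adjusted p of 0.060 there and Trbv13-2 one of 0.37. Whether the numbers pair the libraries is not known. The cause of these differences was not tested. Trac and Trav9-4 were called in all 18 alternatives, Trbc2 in 16 of 17 and Trbv13-2 in 6 of 17, with fold changes always above 0. A fit with library weights, chosen after the data were seen, called 3. For 23 of the 49 lists the median was recomputed under every alternative. Of these 414 values 411 stayed within the spread between libraries, and 3 did not. That spread included WT replicate 1, so it could hide shifts tied to that library. The nuclear respiratory chain median went from -0.068 to 0.014 without WT replicate 1 and still counted as within. Several other list medians changed sign without that library, as given above. The remaining lists were recomputed only without WT replicate 1. Foxp3 had 0 to 10 counts per library, too few for a test.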
